A study of Mus musculus with 4 samples.

Results

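The transcripts of the mouse mitochondrial genome were followed in myeloid-derived suppressor cells (MDSCs) cultured with or without epigallocatechin gallate (EGCG), the main catechin of green tea. Members were chosen by name alone, as every gene of the deposited count table whose symbol begins with mt-. This gave 37 of 53465 genes, namely 13 protein genes, 2 rRNA genes and 22 tRNA genes. The mice were male BALB/c animals aged 6 weeks at the start, each carrying a subcutaneous 4T1 tumor, a transplantable mouse mammary carcinoma line. Spleen cells were taken on day 21 according to the sample labels, although the methods of the study name an earlier day, and cells binding an antibody to Gr-1 (Ly-6G/Ly-6C) were collected with magnetic beads. The control group was cultured in medium alone and the EGCG group in medium with 5 μg/mL EGCG, both for 6 h, with 2 RNA-seq libraries per group. Strain, tumor model, sort and culture time were given alike for both groups, and EGCG was the labelled difference. The question for these genes was whether transcript levels of the mitochondrial genome differed between the EGCG and the control libraries.

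The mitochondrial genome is a small circular DNA present in many copies per cell. Both of its strands are transcribed from end to end into long precursors by a dedicated RNA polymerase, Polrmt. The tRNAs lie between most of the longer genes and are cut out by endonucleases, which also frees the rRNAs and mRNAs. Its mRNAs encode core subunits of respiratory complexes I, III and IV and of the ATP synthase (complex V), and its 2 rRNAs form the core of the mitochondrial ribosome that translates them. All other proteins of these complexes and of the expression machinery are encoded in the nucleus. Neutrophils, the lineage to which most splenic Gr-1+ cells of tumor-bearing mice are related, are known for relying largely on glycolysis. Stretches of mitochondrial DNA have also been copied into nuclear chromosomes during evolution, and reads from such a copy and from the mitochondrial gene can be hard to tell apart.

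All 37 identifiers matched the GENCODE M21 annotation of the GRCm38 build, with 28 genes on the plus strand of chrM and 9 on the minus strand. One run of the genome, chrM:6381-11042, was matched by 7 annotated unprocessed pseudogenes in the same order on the minus strand of chromosome 1, chr1:24611535-24616197. It held 11 genes whole (mt-Ts1, mt-Td, mt-Co2, mt-Tk, mt-Atp8, mt-Atp6, mt-Co3, mt-Tg, mt-Nd3, mt-Tr and mt-Nd4l) and parts of mt-Co1 and mt-Nd4. Sequences of 60 bases from GENCODE M21 transcripts are shown first for 3 pairs of a mitochondrial gene and its chromosome 1 copy, since the levels of these genes are described together with those of the copies. Capitals mark the bases at which the members of a pair differ. The mt-Co2 stretch (bases 1 to 60, chrM:7013-7072, plus strand) and that of its copy Gm28661 (chr1:24615506-24615565, minus strand) were identical. The mt-Nd3 stretch (bases 1 to 60, chrM:9459-9518, plus strand) differed at 1 base from that of Gm28438 (chr1:24613060-24613119, minus strand). The mt-Co1 stretch (bases 1054 to 1113, chrM:6381-6440, plus strand) lies where the copied run starts and differed at 6 bases from the first bases of Gm29216 (chr1:24616138-24616197, minus strand).
mt-Co2: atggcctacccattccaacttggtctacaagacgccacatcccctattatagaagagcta
Gm28661: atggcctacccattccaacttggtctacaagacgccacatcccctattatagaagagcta
mt-Nd3: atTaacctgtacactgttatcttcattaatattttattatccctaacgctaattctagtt
Gm28438: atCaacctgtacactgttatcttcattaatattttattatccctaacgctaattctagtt
mt-Co1: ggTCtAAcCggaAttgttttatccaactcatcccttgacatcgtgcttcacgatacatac
Gm29216: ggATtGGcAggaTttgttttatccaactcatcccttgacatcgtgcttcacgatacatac

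Over the whole lengths compared, Gm28661 had 0 differences from mt-Co2 in 681 bases, Gm10925 had 0 from mt-Atp6 in 678 bases and Gm28437 had 0 from mt-Co3 in 783 bases. Gm10222 had 0 differences from mt-Nd4l in 294 bases and Gm28439 had 0 from the first 876 bases of mt-Nd4. The single difference of Gm28438 from mt-Nd3 in 345 bases was T3C, with the mitochondrial base first and positions counted from 1 at the 5′ end of the mitochondrial gene. Gm29216 differed from mt-Co1 by T1056A, C1057T, A1059G, A1060G, C1062A and A1066T in 492 bases, all within the stretch shown, and the longest run without a difference was 479 bases. Outside this run, no mt- gene shared a 31-base word with the chromosome 1 copies. A more diverged relative of mt-Co1, Gm13340 on chromosome 2, differed from it at 37 of 1545 bases. The beginnings of mt-Co1 (bases 1 to 60, chrM:5328-5387, plus strand) and Gm13340 (chr2:22589588-22589647, minus strand) are shown for contrast.
mt-Co1: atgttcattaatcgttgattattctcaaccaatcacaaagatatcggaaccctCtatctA
Gm13340: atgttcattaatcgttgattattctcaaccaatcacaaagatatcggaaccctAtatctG

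The libraries held 17767318 and 17973695 counts in the control group and 18390385 and 18091684 in the EGCG group. Levels are given as CPM, counts scaled to a common library size after TMM normalization, which sets the typical gene equal between libraries, and as CPM per kb of gene where different genes are compared. Nothing in the labels says that the 2 libraries of a group came from separate animals or cultures, so p-values measure only the spread between these libraries, which may be technical. In bulk libraries such as these, fewer cells of a type and less RNA per cell cannot be told apart. Markers of neutrophils and MDSCs summed to 47386 and 57456 CPM in control replicates 1 and 2 and to 65580 and 57093 CPM in EGCG replicates 1 and 2. Most of this sum was S100a8 and S100a9, and the 7 other markers summed to 10471 and 10999.9 CPM in the controls and 11074 and 10609 CPM with EGCG, a split made after these values were seen. Summed markers were lower in both EGCG libraries than in both controls for macrophages (273 to 299 against 238.5 to 238.5 CPM), monocytes (714 to 761 against 668 to 690 CPM), endothelial cells (107 to 117 against 90.6 to 93.0 CPM) and platelets (35.6 to 38.4 against 31.1 to 31.8 CPM). For T cells they were higher (5.59 to 6.10 against 6.23 to 6.55 CPM). For neutrophil precursors, B cells, erythroid cells and basophils the groups overlapped. Of all single genes tested, 21.5% had both EGCG libraries above both controls and 21.2% had both below. No marker of the neutrophil and MDSC list or of the lists for 9 other cell types was at or under 3 counts in every library.

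By edgeR, no mitochondrial gene passed the adjusted threshold. Low counts removed 17 tRNA genes before testing, and among the 20 genes tested 0 had an adjusted p under 0.05 by edgeR (quasi-likelihood test, Benjamini-Hochberg adjusted p over 14682 genes), where 22 genes or 0.150% were called, 0.0136% as higher and 0.136% as lower. At an unadjusted p under 0.05, 6 of the 20 were higher with EGCG and 0 were lower, against 5.22% of all genes tested that were higher and 7.02% that were lower. These 6 were mt-Rnr1, mt-Rnr2, mt-Nd1, mt-Co1, mt-Nd4 and mt-Cytb. DESeq2, a second count model, called 1 of the 20, mt-Rnr2, as higher (DESeq2 adjusted p = 0.0177), against 0.0954% called higher of the 14682 genes fitted, some of which DESeq2 gave no adjusted p for low counts. Among the 20, the tested tRNA genes, mt-Atp6, mt-Atp8, mt-Co3, mt-Nd3 and mt-Nd4l had no DESeq2 adjusted p and could not be called.

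The estimates leaned to higher levels with EGCG. Positive log2 fold changes were found for 18 of the 20 genes, against 50.6% of all genes tested, and their median was 0.20 against 0.0031 over all genes tested. Both EGCG libraries lay above both control libraries for 9 of the 20, against 21.5% of all genes, and below them for 0 of the 20, against 21.2%. For the other 11 the groups overlapped. EGCG replicate 1 was the highest library for 16 of the 20 and control replicate 1 the lowest for 12. Without EGCG replicate 1 the median was 0.05 with 13 of 20 genes higher, without control replicate 1 it was 0.13, and without EGCG replicate 2 it was 0.31 with 20 of 20 higher.

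**Figure D1:**
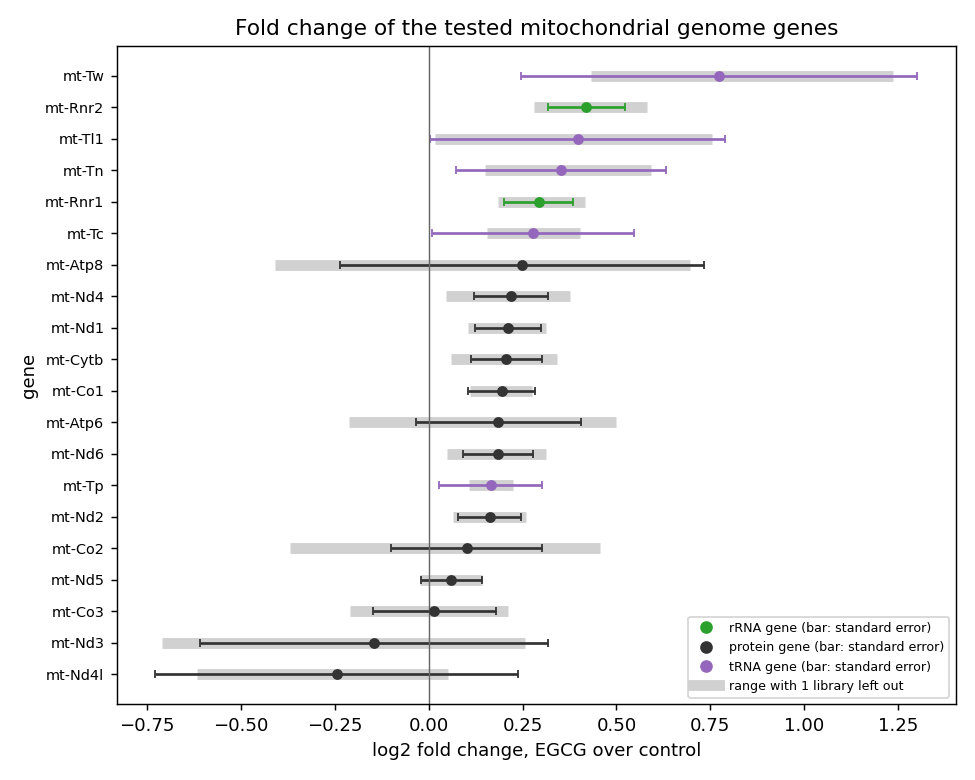
Log2 fold change (EGCG against control) of the 20 tested mitochondrial genes, with points at the estimate, thin bars of 1 standard error and grey bands for the range when each library was left out. Estimates run from -0.24 for mt-Nd4l to 0.77 for mt-Tw, and the widest bars belong to mt-Tw, mt-Atp8, mt-Nd4l and mt-Nd3, which have few counts.

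The rRNA genes showed the largest differences among the genes with more than 1000 counts in every library. The mt-Rnr2 gene, which encodes the large-subunit rRNA of the mitochondrial ribosome (chrM, plus strand), was at 1532.5 and 1892 CPM in control replicates 1 and 2 and at 2442 and 2139 CPM in EGCG replicates 1 and 2. Both EGCG libraries were above both control libraries, and the group means were 1712 ± 254 and 2291 ± 214 CPM (SD, n = 2). Its log2 fold change was 0.42 (SE 0.10, edgeR adjusted p = 0.133), a 1.34-fold difference, and ran from 0.28 to 0.58 when each library was left out in turn. The mt-Rnr1 gene, which encodes the small-subunit rRNA, was at 864.9 and 1018 CPM in the control libraries and at 1220 and 1086 CPM with EGCG. Its groups did not overlap either, with a log2 fold change of 0.29 (SE 0.09, edgeR adjusted p = 0.230). Leaving out control replicate 2 brought mt-Rnr1 and mt-Rnr2 past the adjusted threshold, in a fit that called 0.777% of all genes higher. Leaving out EGCG replicate 2 brought mt-Rnr1, mt-Rnr2, mt-Nd4 and mt-Cytb past it, in a fit that called 0.346% higher. Each of these fits has a single library in one group, which is assumed to vary like the 2 libraries of the other. No mitochondrial gene passed without control replicate 1 or without EGCG replicate 1. The log2 fold change of mt-Rnr1 was 0.19 without control replicate 1 (edgeR adjusted p = 0.791), and without EGCG replicate 1 those of mt-Nd4 and mt-Cytb were 0.0470 and 0.0594, those of mt-Nd2 and mt-Nd6 0.0637 and 0.0492, and those of mt-Nd1 and mt-Co1 0.105 and 0.111.

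Both rRNAs are made from the same precursor, in the order mt-Rnr1 and then mt-Rnr2. A ratio of counts within a library does not depend on library size. There were 1.77 and 1.86 counts on mt-Rnr2 for each count on mt-Rnr1 in the control libraries and 2.002 and 1.97 with EGCG. All EGCG ratios were above all control ratios, at the smallest p that an exact two-sided permutation test of 2 against 2 libraries allows, 0.333. No comparison of a single value between these groups can therefore reach 0.05 by that test. Against mt-Nd1, the next protein gene on the same strand, the ratio for mt-Rnr2 was 2.91 and 3.21 in the control libraries and 3.52 and 3.57 with EGCG (exact p = 0.333).

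Complex I, the NADH dehydrogenase at the entry of the respiratory chain, takes 7 subunits from the mitochondrial genome. Of these, mt-Nd1 had 527.2 and 589.3 CPM in the control libraries and 693.1 and 599.5 CPM with EGCG. Its groups did not overlap, although EGCG replicate 2 was above control replicate 2 by a ratio of only 1.02, and the log2 fold change was 0.21 (SE 0.09, edgeR adjusted p = 0.364). The mt-Nd2 gene had 234.9 and 255.1 CPM against 293.0 and 255.6 CPM, control before EGCG. Here EGCG replicate 2 and control replicate 2 were almost equal, and the log2 fold change was 0.16 (SE 0.08, edgeR adjusted p = 0.466). For mt-Nd2 it was 0.0965 with a correction for gene length and 0.09955 with a correction for GC content. The mt-Nd4 gene had 329.1 and 357.5 CPM in the control libraries and 445.6 and 354.1 CPM with EGCG. EGCG replicate 2 fell between the control values, and the log2 fold change was 0.22 (SE 0.10, edgeR adjusted p = 0.394).

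The mt-Nd5 gene, for another membrane subunit of complex I, showed the smallest difference among the genes with more than 1000 counts per library. Its levels were 573.6 and 605.3 CPM in the control libraries and 649.9 and 578.9 CPM with EGCG, and the groups overlapped (log2 fold change 0.06, SE 0.08, edgeR adjusted p = 0.826). The mt-Nd6 gene, the only protein gene of the minus strand, lies against mt-Nd5 and shares 14 bases with it. It had 139.1 and 155.1 CPM in the control libraries and 182.4 and 151.9 CPM with EGCG, which overlapped (log2 fold change 0.18, SE 0.09, edgeR adjusted p = 0.448, and 0.0726 with a correction for gene length). Because counting ignored strand, reads from mt-Nd6 and from any transcript opposite to it cannot be told apart. The remaining complex I genes, mt-Nd3 and mt-Nd4l, lay in the copied run and are described with it.

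The mt-Cytb gene encodes cytochrome b, the mitochondrially encoded subunit of complex III. It was at 856.8 and 926.8 CPM in the control libraries and at 1130 and 927.6 CPM with EGCG, with EGCG replicate 2 level with control replicate 2 (log2 fold change 0.21, SE 0.09, edgeR adjusted p = 0.403). The mt-Co1 gene, for the catalytic subunit of complex IV (cytochrome c oxidase), was at 3237 and 3535 CPM in the control libraries and at 4096 and 3651 CPM with EGCG. Its groups did not overlap, and its log2 fold change was 0.19 (SE 0.09, edgeR adjusted p = 0.405). The other mitochondrial subunits of complex IV (mt-Co2 and mt-Co3) and both of complex V (mt-Atp6 and mt-Atp8) lay in the copied run.

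The lowest and the highest library were shared by the 9 genes with more than 1000 counts in every library. These were the 2 rRNA genes and mt-Co1, mt-Cytb, mt-Nd1, mt-Nd2, mt-Nd4, mt-Nd5 and mt-Nd6. The order of control replicate 2 and EGCG replicate 2 differed between them. Control replicate 1 was the lowest and EGCG replicate 1 the highest library for 9 of the 9, and both EGCG libraries lay above both controls for 6, against 21.5% of all genes tested. The ratio of control replicate 2 to control replicate 1 ran from 1.06 to 1.23 over these genes and that of EGCG replicate 1 to EGCG replicate 2 from 1.12 to 1.26. The ratio of EGCG replicate 2 to control replicate 2 ran from 0.956 to 1.13, with mt-Rnr2 the highest and mt-Nd5 the lowest. Replicates of a group thus differed by about as much as the groups did. The summed neutrophil and MDSC markers, carried by S100a8 and S100a9, were likewise lowest in control replicate 1 and highest in EGCG replicate 1. The part of these and of the macrophage, monocyte, endothelial, platelet and T cell markers in the differences was not tested.

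**Figure D2:**
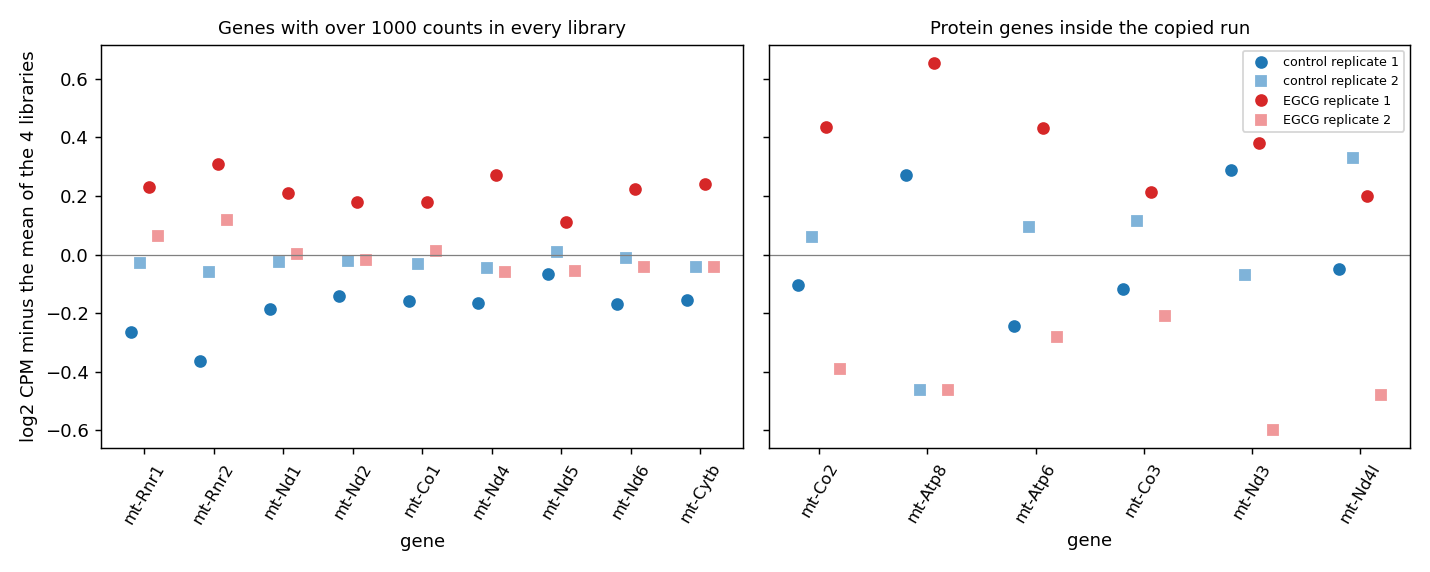
Level of each gene in each of the 4 libraries as log2 CPM minus the mean of the 4, for the 9 genes with over 1000 counts in every library (left) and the 6 protein genes inside the run copied on chromosome 1 (right). On the left control replicate 1 is the lowest and EGCG replicate 1 the highest for 9 of 9 genes, and on the right EGCG replicate 2 is the lowest for 5 of 6, with mt-Atp8 the exception.

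Levels per length separated the genes inside the copied run from their neighbours. Averaged over the 4 libraries, mt-Co1 had the highest level at 2349 CPM per kb, followed by mt-Rnr2 at 1265, mt-Rnr1 at 1096, mt-Cytb at 839 and mt-Nd1 at 629 CPM per kb. The order of the 2 rRNAs was the same in each library, and mt-Co1 was above both in each. Next came mt-Nd5, mt-Nd6, mt-Nd4 and mt-Nd2 at 330, 303, 270 and 250 CPM per kb. These 4 genes kept that order in each library although the values of neighbours overlapped between libraries. The place of mt-Nd4 is uncertain, since its length includes copied bases, whose reads fit several places. The 6 protein genes inside the run were far lower, from mt-Co2 at 18.5 CPM per kb, mt-Co3 at 13.8 and mt-Atp6 at 10.6 down to mt-Atp8 at 4.00, mt-Nd3 at 2.27 and mt-Nd4l at 2.15 CPM per kb. The level of mt-Co1 per length was 124 and 121 times that of mt-Co2, its neighbour within the same precursor, in the control libraries and 108 and 171 times with EGCG.

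**Figure D3:**
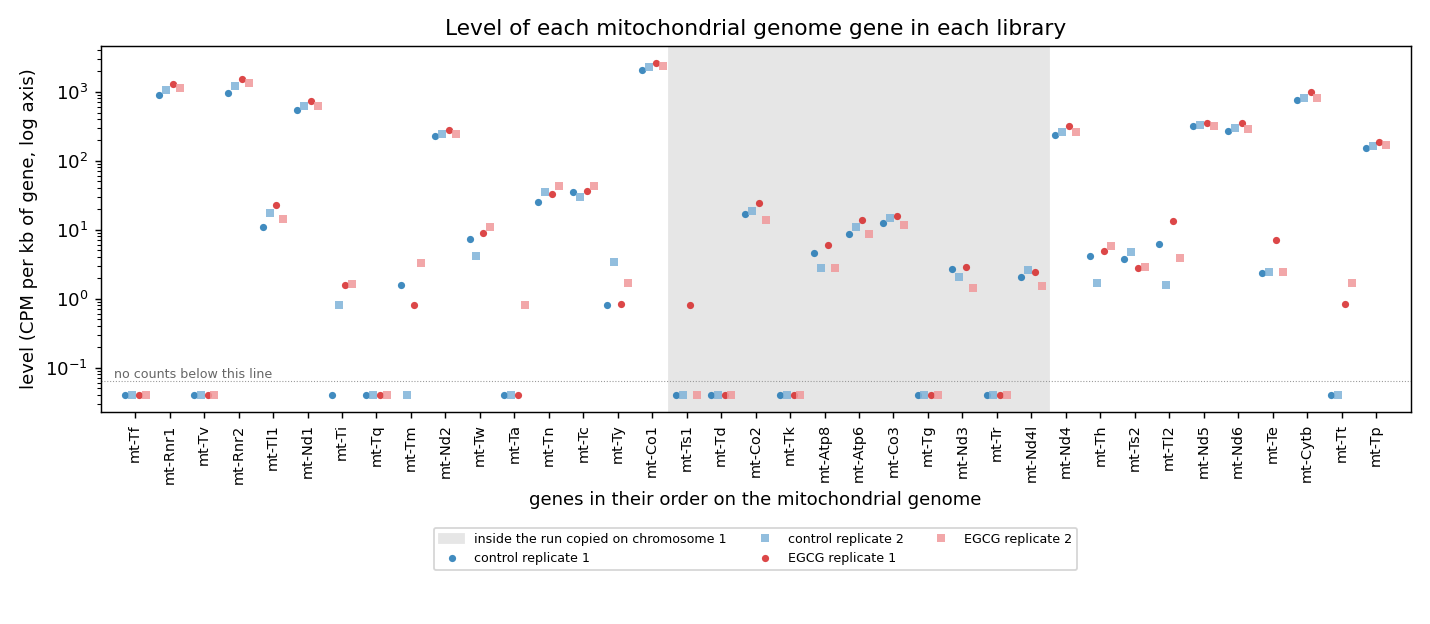
Level of the 37 mitochondrial genes in each library (CPM per kb, log axis), in their order on the genome, with the genes wholly inside the run copied on chromosome 1 shaded and counts of 0 drawn under the dotted line. Protein genes in the shaded area average 2.15 to 18.5 CPM per kb, whereas mt-Co1 and mt-Nd4 on either side, which lie partly in the run, average 2349 and 270 CPM per kb.

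The genes with nearly all of their sequence in the chromosome 1 copies were low, as was mt-Atp8, which shared little. Of the 31-base words of mt-Co2 and mt-Atp6, 99.5% each also occurred in a chromosome 1 copy, as did 99.9% for mt-Co3, 98.1% for mt-Nd3 and 98.9% for mt-Nd4l. The shares were 62.8% for mt-Nd4 and 29.6% for mt-Co1, which run out of the copied region. Over their whole length, copied bases included, these genes averaged 270 and 2349 CPM per kb. The level of their uncopied part alone was not measured. With every nuclear transcript counted, Gm13340 among them, mt-Co1 shared 63.9% of its words and still had the highest level. For mt-Atp8 only 7.47% of words were in an annotated copy, since no transcript is annotated over most of its stretch of chromosome 1, and it overlaps mt-Atp6 by 43 bases. How reads that fit several places were treated is not given in the sources used here beyond default aligner settings, and the part of read placement in these levels was not tested.

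**Figure D4:**
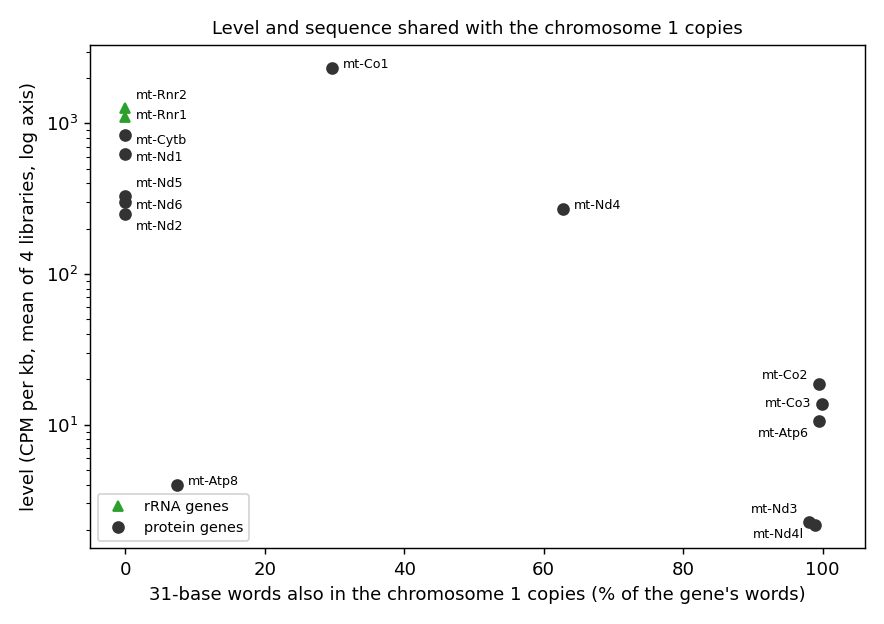
Mean level over 4 libraries (CPM per kb, log axis) of the protein and rRNA genes against the percentage of their 31-base words also present in the chromosome 1 copies. Genes at 98.1% or above lie at 18.5 CPM per kb or below, and mt-Atp8 at 7.47% is also low, at 4.00 CPM per kb.

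For mt-Co2, mt-Co3 and mt-Atp6, counts on the chromosome 1 copy were close in number to those on the mitochondrial gene. Gm28661 received 170 and 194 counts in the control libraries and 287 and 148 with EGCG, and mt-Co2 received 211 and 231 and then 304 and 169. The mitochondrial member thus held 55.4% and 54.4% of the pair in the control libraries and 51.4% and 53.3% with EGCG. In EGCG replicate 2, for example, the 95% Clopper-Pearson interval of this share was 47.7% to 58.9%, which covers counting error only. The mt-Co3 gene held 54.0% and 57.6% of its pair with Gm28437 in the control libraries and 48.9% and 53.9% with EGCG. For mt-Atp6 and Gm10925 the shares were 44.0% and 49.6%, and 46.3% and 44.3%, so that the mitochondrial member held between 44.0% and 57.6% in these 3 pairs. The interval excluded 50% for mt-Co3 in control replicate 2 (52.3% to 62.8%) and for mt-Co2 in control replicate 1 (50.2% to 60.4%) and covered it in the other libraries of these pairs. The level of the mitochondrial and that of the nuclear gene of such a pair are both uncertain where their reads could be divided between them.

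The pairs of mt-Nd3, mt-Nd4 and mt-Co1 were uneven. Gm28438 received 59 and 60 counts in the control libraries and 104 and 84 with EGCG, while mt-Nd3 received 17 and 13 and then 18 and 9. Both EGCG values of Gm28438 were above both control values, with a log2 fold change of 0.66 (SE 0.21, edgeR adjusted p = 0.230). The share on mt-Nd3 was 22.4% and 17.8% in the control libraries and 14.8% and 9.68% with EGCG. For mt-Co1, whose copied part begins late in the gene, Gm29216 received 140 and 182 counts in the control libraries and 214 and 159 with EGCG, so that 99.7% to 99.8% of the pair's counts were on mt-Co1. For mt-Nd4, Gm28439 received 59 and 34 counts in the controls and 60 and 47 with EGCG, although its 876 bases had 0 differences from the start of mt-Nd4. The mt-Nd4 gene itself received 6009 and 6389 counts and then 8079 and 6324, which is 99.0% to 99.5% of that pair. Summed over the 7 copies, 0.00412% and 0.00429% of all counts in the control libraries and 0.00606% and 0.00401% with EGCG lay on chromosome 1, and the groups overlapped.

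**Figure D5:**
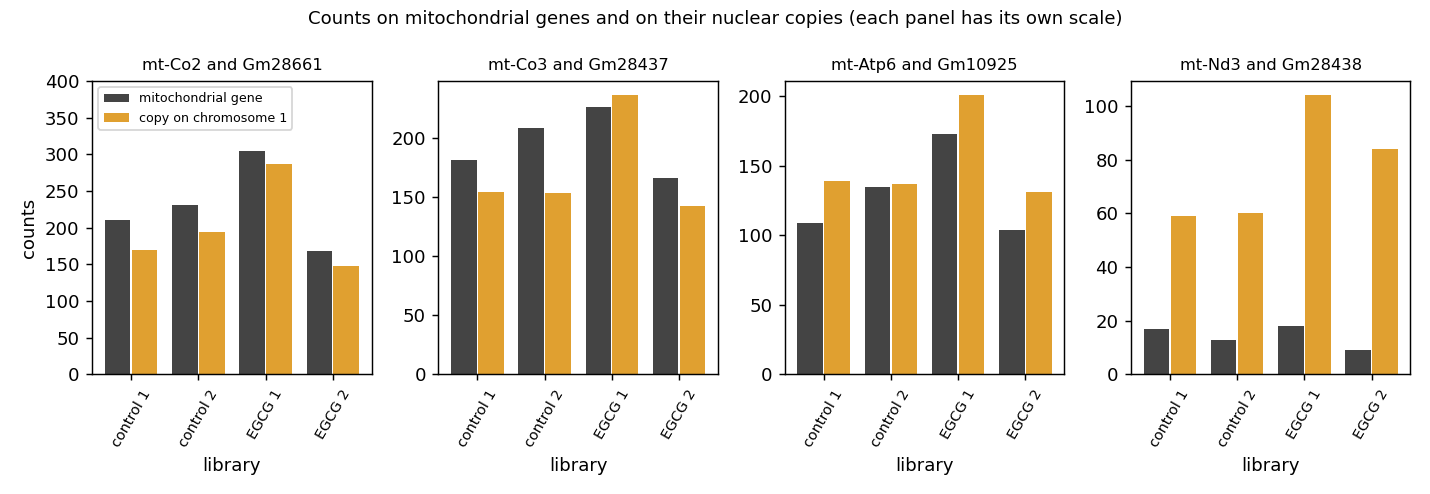
Counts per library on mitochondrial genes and on their chromosome 1 copies, with a panel and a scale of its own for each pair. Counts on mt-Co2 (169 to 304) and on Gm28661 (148 to 287) are close in each library, and both are highest in EGCG replicate 1.

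None of the 6 protein genes inside the run separated the groups. The mt-Co2 gene, for the subunit of complex IV that takes electrons from cytochrome c, was at 11.6 and 12.9 CPM in the control libraries and at 16.8 and 9.46 CPM with EGCG (log2 fold change 0.10, SE 0.20, edgeR adjusted p = 0.887). The mt-Co3 gene, for the remaining core subunit of that complex, was at 9.91 and 11.6 CPM in the control libraries and at 12.5 and 9.29 CPM with EGCG (log2 fold change 0.01, SE 0.16, edgeR adjusted p = 0.980). The EGCG libraries enclosed both control values for each of these genes. The mt-Atp6 gene, for a subunit of the proton channel of the ATP synthase, was at 5.97 and 7.55 CPM in the control libraries and at 9.54 and 5.82 CPM with EGCG (log2 fold change 0.19, SE 0.22, edgeR adjusted p = 0.789).

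The mt-Atp8 gene, for a small accessory subunit of the same enzyme, had 17 and 10 counts in the control libraries and 22 and 10 with EGCG (log2 fold change 0.25, SE 0.48, edgeR adjusted p = 0.883). The mt-Nd3 gene, a small complex I subunit with the counts given above, had a log2 fold change of -0.15 (SE 0.46, edgeR adjusted p = 0.935). The mt-Nd4l gene, another small subunit of complex I, had 11 and 14 counts in the control libraries and 13 and 8 with EGCG (log2 fold change -0.24, SE 0.48, edgeR adjusted p = 0.885). With so few counts, differences of the size seen for mt-Rnr2 were not detectable for these last 3 genes, whose standard errors exceed that difference. EGCG replicate 2 was the lowest library for 5 of the 6 genes in the run, and for 0 of the 5 protein genes lying wholly outside it. Some gaps to control replicate 1 were small, with 5.82 against 5.97 CPM for mt-Atp6 and 8 against 11 counts for mt-Nd4l. Whether this order exceeds counting error was not tested.

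Few counts fell on tRNA genes. The 22 genes, 59 to 75 bases long, received 1390 counts in all over the 4 libraries, and 7 of them received 0 in every library, where a count of 0 allows up to 3 counts per library. Another 4 had at most 3 counts in every library, giving 11 at or under 3 counts. Among the 17 genes not tested the highest count in any library was 17, on mt-Tl2, which had 8 and 2 counts in the control libraries and 17 and 5 with EGCG. The 5 tRNA genes inside the copied run received 1 count in all, on mt-Ts1 in EGCG replicate 1. The labels give total RNA and a standard Illumina library, and how transcripts were selected or sized is not given in the sources used here, so a low count says little about the abundance of such short RNAs.

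The 5 tRNA genes that were tested carried nearly all of these counts. The mt-Tp gene, for the proline tRNA, stood apart with 187 and 195 counts in the control libraries and 224 and 203 with EGCG. Its groups did not overlap, and its log2 fold change was 0.17 (SE 0.14, edgeR adjusted p = 0.673), or 0.0408 with a correction for gene length. It lies on the minus strand at chrM:15356-15422, abuts mt-Tt on the opposite strand and averaged 167 CPM per kb over the libraries. Its sequence is shown as that of the tRNA gene with most counts.
mt-Tp: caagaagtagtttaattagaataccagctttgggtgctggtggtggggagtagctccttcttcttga

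The neighbours mt-Tn (asparagine) and mt-Tc (cysteine) of the minus strand had 33 and 44 counts and 42 and 35 counts in the control libraries, and 43 and 55 and 43 and 50 with EGCG. The EGCG values of mt-Tc were above its control values, by as little as 1 count, and those of mt-Tn overlapped. Their log2 fold changes were 0.35 (SE 0.28, edgeR adjusted p = 0.662) for mt-Tn and 0.28 (SE 0.27, edgeR adjusted p = 0.727) for mt-Tc. With each library left out in turn, they ran from 0.15 to 0.59 for mt-Tn and from 0.16 to 0.40 for mt-Tc. On the plus strand, mt-Tl1 (leucine), which directly follows mt-Rnr2, had 15 and 23 counts in the control libraries and 31 and 19 with EGCG (log2 fold change 0.40, SE 0.39, edgeR adjusted p = 0.734). Leaving out EGCG replicate 1 brought mt-Tl1 to 0.0177, and leaving out control replicate 2 brought it to 0.75. The mt-Tw gene (tryptophan) had 9 and 5 counts and then 11 and 13. Its log2 fold change of 0.77 was the highest of the 20 genes and had the widest error (SE 0.53, edgeR adjusted p = 0.5999). It ran from 0.43 to 1.24 with each library left out, and without control replicate 2 it was below that of mt-Tl1. By strand, the 8 tRNA genes of the minus strand received 1182 counts and the 14 of the plus strand 208, but with unstranded counting the strand the reads came from cannot be told apart.

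Together the mitochondrial genes took 0.857% and 0.933% of all counts in the control libraries and 1.11% and 0.967% with EGCG, with 95% Clopper-Pearson intervals of 0.929% to 0.938% for control replicate 2 and 0.962% to 0.971% for EGCG replicate 2. The group means were 0.895 ± 0.0536% and 1.04 ± 0.0983% (SD, n = 2), and the difference of 0.141 percentage points had an exact permutation p of 0.333. Without EGCG replicate 1 the difference was 0.0714 and without EGCG replicate 2 it was 0.211. The rRNA genes contributed 0.246% and 0.289% of counts in the control libraries and 0.361% and 0.318% with EGCG, and the protein genes 0.609% and 0.642%, and 0.743% and 0.646%. For both classes the groups did not overlap, but for the protein genes control replicate 2 (95% interval 0.638% to 0.646%) and EGCG replicate 2 (0.642% to 0.650%) agree within counting error.

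Within the mitochondrial counts, the share of rRNA was 28.7% and 31.001% in the control libraries and 32.6% and 32.9% with EGCG. The EGCG libraries lay close together and above both control libraries, a difference of 2.93 percentage points (exact permutation p = 0.333) that ran from 1.796 to 4.06 when each library was left out. The mt-Co1 gene took 38.8% and 37.7% in the control libraries and 36.5% and 37.3% with EGCG, the largest share of any gene in each library. The share of mt-Nd5 was 6.88% and 6.45% in the control libraries and 5.80% and 5.91% with EGCG. Shares of a total are bound to each other, so a larger rRNA share lowers the rest.

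Among protein gene counts alone, the split between complexes moved little. Complex I genes held 30.5% and 30.4% in the control libraries and 30.1% and 29.7% with EGCG, and complex IV genes 55.0% and 55.1%, and 54.8% and 56.1%. Complex III, through mt-Cytb, held 14.5% and 14.4% in the control libraries and 15.0% and 14.2% with EGCG. Complex V held 0.116% and 0.126% in the control libraries and 0.143% and 0.0975% with EGCG, both of its genes being in the copied run. The run also holds mt-Nd3 and mt-Nd4l of complex I and mt-Co2 and mt-Co3 of complex IV. Of the 59500 complex IV counts in control replicate 1, 59108 were on mt-Co1. Across strands, mt-Cytb received 6.16 and 5.97 counts for each count on mt-Nd6 in the control libraries and 6.19 and 6.11 with EGCG, which overlapped.

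The nuclear genes that transcribe, process and translate the mitochondrial genome were described from a list of 67 symbols, 64 of which were tested. Of these, 32 had positive and 32 negative log2 fold changes, 0 passed the adjusted threshold with edgeR, and at an unadjusted p under 0.05 there were 3 higher and 1 lower, where 5.22% and 7.02% of all genes tested were, so the share that was higher was near the share among all genes. DESeq2 also called 0 of them. Polrmt, the mitochondrial RNA polymerase, was at 11.5 and 10.2 CPM in the control libraries and at 11.3 and 7.95 CPM with EGCG (log2 fold change -0.18, SE 0.17, edgeR adjusted p = 0.722). Tfam, which packages the mitochondrial genome and helps start its transcription, was at 13.9 and 12.5 CPM in the control libraries and at 13.7 and 17.0 CPM with EGCG (log2 fold change 0.22, SE 0.14, edgeR adjusted p = 0.558). Both of these genes overlapped between groups, as did the initiation factor Tfb2m with a log2 fold change of -0.05 (SE 0.15) and the replicative helicase Twnk with -0.03 (SE 0.18).

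Tefm, the elongation factor of Polrmt, was at 2.25 and 1.96 CPM in the control libraries and at 2.37 and 3.53 CPM with EGCG (log2 fold change 0.49, SE 0.28, edgeR adjusted p = 0.524). Polg, the catalytic subunit of the DNA polymerase that copies the genome, was at 102.2 and 92.3 CPM in the control libraries and at 88.0 and 82.4 CPM with EGCG (log2 fold change -0.19, SE 0.08, edgeR adjusted p = 0.371). Lrpprc and Slirp form a complex that stabilizes mitochondrial mRNAs. Lrpprc was at 19.8 and 18.7 CPM in the control libraries and at 18.8 and 19.6 CPM with EGCG, without separation. Slirp, at 1.37 and 0.783 CPM in the control libraries and 1.65 and 2.18 CPM with EGCG, had the highest log2 fold change of the list at 0.83 (SE 0.36, edgeR adjusted p = 0.388). The lowest was -0.38 for Fastkd1 (SE 0.23, edgeR adjusted p = 0.558), of a family of RNA-binding proteins of the mitochondrial matrix.

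Nuclear subunits of the complexes that mitochondrial genes help to build were taken from a list of 72, of which 71 were tested. Positive log2 fold changes were found for 64 of the 71, against 50.6% of all genes tested, with a median of 0.15, but 0 passed the adjusted threshold with edgeR or with DESeq2. At an unadjusted p under 0.05, 24 were higher and 0 lower, against 5.22% and 7.02% of all genes tested. Both EGCG libraries lay above both control libraries for 59.2% of the list, against 21.5% of all genes tested. By complex, 33 of 36 subunits of complex I were higher, 8 of 9 of complex III, 10 of 11 of complex IV and 13 of 15 of complex V. Their medians were 0.17, 0.15, 0.15 and 0.16. For the 13 mitochondrial protein genes the median was 0.18, with 0.06 for the 6 inside the copied run and 0.18 for the 5 wholly outside it. Within the nuclear list, the highest value was 0.38 for Ndufb6 (SE 0.14, edgeR adjusted p = 0.280), a membrane-arm subunit of complex I. The lowest was -0.16 for Atp5g2 (SE 0.34, edgeR adjusted p = 0.901), a c subunit gene of the ATP synthase. When each library was left out in turn, the median of the nuclear list ran from 0.10 without control replicate 1 to 0.21 without control replicate 2. It was 0.11 with the correction for gene length. Without EGCG replicate 1 it was 0.15, beside 0.05 for the 20 tested mitochondrial genes.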

How the data were processed

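MDSC libraries were compared as 2 control against 2 EGCG libraries, grouped by their labels. The deposited values are whole, unnormalized read counts per gene. The authors demultiplexed reads with bcl2fastq 1.8.4, checked them with FastQC, aligned them to GRCm38 with STAR 2.6.0c at default settings and counted them without regard to strand with featureCounts 1.6.2 on Ensembl release 91. Counts were fitted with edgeR 4.0.16 in R 4.3.3 (filterByExpr with a minimum count of 10, TMM scaling, quasi-likelihood test of group, Benjamini-Hochberg adjustment over all 14682 genes tested, threshold 0.05). The standard error is the absolute log2 fold change divided by the square root of F. Totals ran from 17767318 to 18390385 counts per library. The scripts were tested on simulated data. Shared sequence was counted as 31-base words of GENCODE M21 transcripts (GRCm38), and copies were aligned without gaps. No genome sequence was used. Single values were compared by two-sided exact permutation tests, which have a smallest p of 0.333.

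All mt- genes are accounted for, with values per library for the tested ones. From the nuclear lists, preset genes and the highest and lowest log2 fold changes are named. Copies named by rule shared at least 50% of their words and had at least 100 counts, at most 5 by total. Gm28439, Gm10222 and Gm13340 were added after their values were seen. Members and lists were chosen with earlier results of these data known. Alternatives were other filters, scalings, estimators, DESeq2 1.42.0, length and GC corrections, a replicate block and leaving out each library.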

Additional observations from a re-analysis of the deposited data

How the results depend on the processing

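Over the 12 alternatives that kept all libraries, the 20 mitochondrial genes (15 of them with at least 1 CPM in every library) had a median log2 fold change from 0.13 (length correction) to 0.21. Without a filter on low counts, the median over all mitochondrial genes then tested was 0.24. Their number past the adjusted threshold was 1 with library size only and 1 with DESeq2, mt-Rnr2 as higher in both cases, and 0 to 4 when each library was left out. Library size alone moved the median of all genes to -0.03. The log2 fold change of mt-Co3 turned to -0.0193 with library size only, -0.0699 with the length correction and -0.0104 with the GC correction. With each library left out, values ran from -0.21 to 0.21 for mt-Co3, -0.71 to 0.26 for mt-Nd3, -0.41 to 0.70 for mt-Atp8, -0.37 to 0.46 for mt-Co2, -0.21 to 0.50 for mt-Atp6, -0.0235 to 0.14 for mt-Nd5 and -0.62 to 0.0514 for mt-Nd4l. The length correction lowered the estimate of each of the 20 genes, to 0.0045 for mt-Co2 and 0.0184 for mt-Nd5 among others. The reversals concern genes of the copied run, which have few counts, and mt-Nd5, and the cause was not tested. The number of nuclear partner genes past the threshold ran from 0 to 7 with a library left out.

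Over all genes, the 22 calls became 0 without a filter on low counts (1795 at an unadjusted p under 0.05), 11 with at least 1 CPM in every library, 11 with upper-quartile scaling, 151 with library size only (16 higher and 135 lower of 14682 genes), 63 with robust estimation, 64 with DESeq2, 7 with the length correction and 62 with the GC correction. Leaving out each library gave 77 to 354 calls (77 without control replicate 1, 354 without control replicate 2, 118 without EGCG replicate 1 and 252 without EGCG replicate 2). With a replicate block there were 30 calls, 0 mitochondrial genes past the threshold and a median of 0.20 over them. Same-numbered libraries did not deviate together (correlation 0.0336 over genes, 2 pairs), and nothing in the labels says that the numbers mark a shared animal or day, so the pairing is by number only.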
